A study of Mus musculus with 2 samples.

Results

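The Mir297, Mir466, Mir467 and Mir669 microRNA genes of the mouse were described here in the young heart. Members were chosen by name alone, as every gene of the deposited tables whose GENCODE M21 symbol is Mir297, Mir466, Mir467 or Mir669, alone or with a letter or number suffix. The rule gave 81 of 2202 microRNA genes, 6 of them Mir297, 28 Mir466, 17 Mir467 and 30 Mir669 genes. Of the 81, 71 lie inside the gene Sfmbt2 and 10 lie elsewhere.

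RNA of under 30 bases was sequenced from hearts of 14-day-old females, with no treatment labelled. The animals were B6CASTF1/J, first-generation hybrids of the C57BL/6J and CAST/EiJ strains. There was 1 group of 2 biological replicates and no contrasted condition. The labels name 3 females for replicate 1 and a single female for replicate 2, give both the same donor entry, and do not say whether the 3 were pooled. A free-text label gives the age in months, and the age field, in days, was used. The tables hold whole heart tissue and do not separate the parental alleles, so neither the cell type nor the allele behind a read is known.

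MicroRNAs are cut from hairpin precursors and repress messenger RNAs that pair with their seed, the bases near the 5′ end. Sfmbt2 encodes a Polycomb protein and is an imprinted gene, expressed from the paternal allele in extraembryonic tissue. One of its introns carries a rodent-specific array of microRNA hairpins, which is best known from the placenta. In the heart, members of the Mir669 family have been described in cardiac progenitor cells, where they hold back skeletal muscle differentiation.

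Replicate 1 held 12701590 reads and replicate 2 held 7126319, and 5237062 and 3026501 of these were assigned to microRNA genes in the sense direction. Levels are given as reads per 1000000 counted reads (CPM), with exact 95% Clopper-Pearson intervals that cover counting error only. No length scaling was applied, as each read stands for a short RNA and not for a piece of a long transcript. Reads that mapped to several places made up 41.1% and 39.9% of the libraries and are counted for no gene. The heart's own microRNAs were present, with 5 of 8 cardiomyocyte markers at 10 or more reads in both libraries, among them Mir499 (18235 and 7524 reads) and Mir208a (7100 and 1939 reads). Mir1a-1, Mir133a-2 and Mir133b were below that minimum, and whether their reads mapped to several places was not tested.

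Sequences of 9 of the 81 members were found by symbol in the RefSeq table of build GRCm38.p6, and 8 of them have a mature sequence there. All 8 belong to genes outside Sfmbt2, and they are printed to show the kind of sequence these families carry. Capitals mark the seed, bases 2 to 8 from the 5′ end.
miR-466q: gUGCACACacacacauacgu
miR-466k: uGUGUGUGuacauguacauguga
miR-669n: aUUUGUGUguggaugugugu
miR-467g: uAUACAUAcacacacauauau
miR-467h: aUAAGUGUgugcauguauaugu
miR-466j: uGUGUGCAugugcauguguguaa
miR-467f: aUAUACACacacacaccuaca
miR-466i-3p: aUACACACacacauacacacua
All 8 seeds differ from each other. They are built largely of alternating purines and pyrimidines, as in runs of UG or CA. The longest unbroken alternation covered all 20 bases of miR-466q and all 21 of miR-467g, and was shortest in miR-669n with 8 of 20 bases. In the same table, the seed of miR-467h also occurs in miR-668-5p. The alternation is a property of the hairpins of all 4 families. Of the adjacent base pairs along a hairpin, the median share that step between purine and pyrimidine was 86.2% over the 81 members (64.3% to 97.3%), beside 44.8% over all 2202 hairpins of the tables.

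The 71 members inside Sfmbt2 all lie on its plus strand in a single intron of 62472 bases (mm10 chr2:10461473-10523944), which is intron 10 or 11 depending on the transcript. None overlaps an annotated exon. They span 51.6 kb, from Mir466m at its 5′ end (chr2:10466663-10466746) to Mir669h at its 3′ end (chr2:10518155-10518279), with a median gap of 209 bases between neighbours. The families are interleaved and not grouped, and the family changed between neighbours at 57 places along the order. The middle of the array is a tandem repeat that carries 10 Mir467a copies, whose starts lie 2413 to 4880 bases apart (median 2462). The other members are Mir466q in an intron of Tnik on its own strand (chr3:28419943-28420018), 5 genes in introns of genes on the opposite strand (Mir466k, Mir669n, Mir467g, Mir467f and Mir466i) and 4 outside annotated genes (Mir466j, Mir466f-4, Mir297-1 and Mir467h).

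Reads of these families came from a few genes at both edges of the Sfmbt2 array, and the tandem repeat between them was nearly silent in the counts. Of 81 members, 7 had at least 10 reads in both libraries (8.64%), beside 15.2% of all microRNA genes. An eighth, Mir669h, had 18 and 8 reads, 3 had 1 to 9 reads in sum, and 70 had no read in either library. All 8 genes with 10 or more reads in sum are Mir467 or Mir669 genes inside Sfmbt2, 3 of the first and 5 of the second family.

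**Figure D1:**
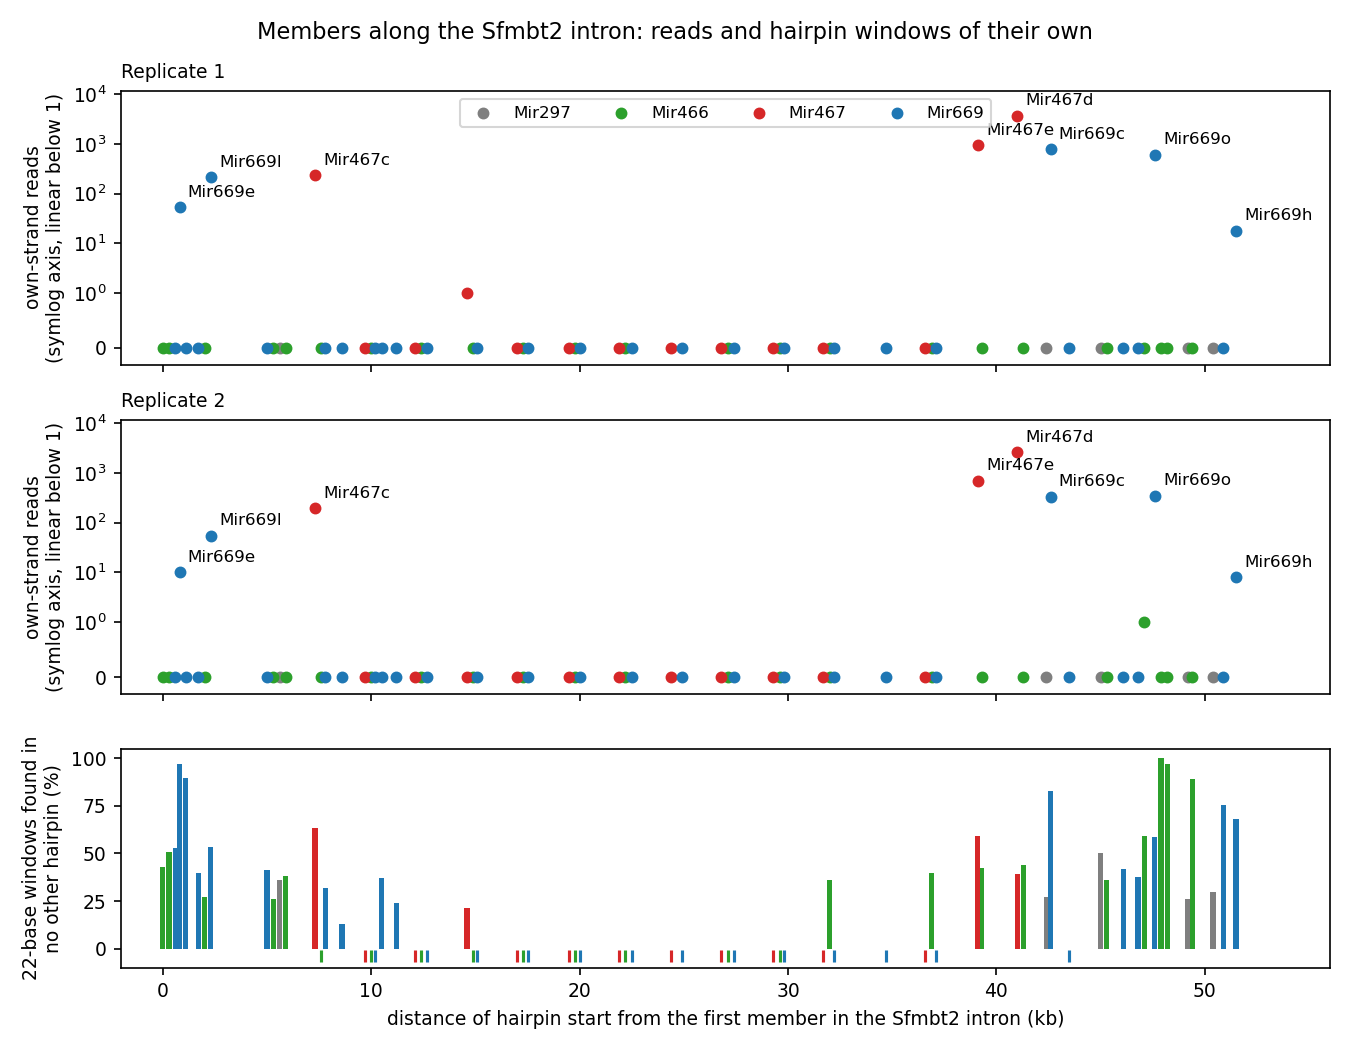
Own-strand reads of the 71 members inside Sfmbt2 in replicate 1 (top) and replicate 2 (middle), and the share of 22-base windows of each hairpin that occur in no other microRNA hairpin (bottom, with ticks below 0 for members that have none), against distance from the first member in kb; points and bars are single genes coloured by family, and the read axes are logarithmic above 1 and linear below. Counted reads lie on both sides of the tandem repeat, with Mir669e, Mir669l and Mir467c on the left and Mir467e to Mir669h on the right.

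From the first to the last Mir467a copy lie 33 members over 27.0 kb, and they had 1 read in replicate 1 and 0 in replicate 2. That read was of Mir467b, and 0 of the 33 were detected. As stated above, these counts do not bound the reads of 29 of the 33. The 16 members upstream of this stretch had 504 reads in replicate 1 and 260 in replicate 2, with 3 detected. The 22 members downstream of it had 6080 and 4058 reads, with 4 detected. The downstream members therefore held 92.3% of all members' counted reads in replicate 1 (interval 91.7 to 93.0) and 93.9% in replicate 2 (93.2 to 94.6). The upstream members held 7.65% (7.02 to 8.32) and 6.02% (5.33 to 6.77).

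Mir467d was the highest member. It lies in the downstream part of the array, 41.0 kb from the first member (chr2:10507630-10507714), and had 3706 reads in replicate 1, or 708 CPM (interval 685 to 731), and 2659 in replicate 2, or 879 CPM (846 to 913). Its mean was 793 ± 121 CPM (SD, n = 2), and it ranked 80th and 74th of all microRNA genes. It alone took more than all other members together in each library. Mir467e, 39.1 kb from the first member (chr2:10505721-10505807), had 959 reads (183 CPM, 172 to 195) and 705 reads (233 CPM, 216 to 251), with a mean of 208 ± 35.2 CPM. Mir467c, upstream of the tandem repeat (chr2:10473931-10474027), had 238 reads (45.4 CPM, 39.9 to 51.6) and 195 reads (64.4 CPM, 55.7 to 74.1), with a mean of 54.9 ± 13.4 CPM. All 3 Mir467 genes stood higher in CPM in replicate 2, and their intervals do not overlap between the libraries. Differences beyond counting error were common, as the binomial test given below called 55.3% of the 430 genes tested. The share of all genes whose intervals lie apart was not taken.

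Among Mir669 genes, Mir669c and Mir669o were highest. Mir669c (chr2:10509296-10509404) had 782 reads (149 CPM, 139 to 160) in replicate 1 and 333 reads (110 CPM, 98.5 to 123) in replicate 2, with a mean of 130 ± 27.8 CPM. Mir669o (chr2:10514300-10514395) had 615 reads (117 CPM, 108 to 127) and 352 reads (116 CPM, 104 to 129), with a mean of 117 ± 0.796 CPM. These neighbours in the order of levels do not differ beyond the spread between libraries, since Mir669c was the higher in replicate 1 and Mir669o in replicate 2. The intervals of Mir669c do not overlap between the libraries, and those of Mir669o do. As for the Mir467 genes, the share of all genes whose intervals lie apart was not taken. Mir669c and Mir669o both lie downstream of the tandem repeat.

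The upstream Mir669 genes were lower and less even between the libraries. Mir669l (chr2:10468971-10469068) had 213 reads (40.7 CPM, 35.4 to 46.5) and 55 reads (18.2 CPM, 13.7 to 23.7). Mir669e (chr2:10467495-10467613) had 53 reads (10.1 CPM, 7.58 to 13.2) and 10 reads (3.30 CPM, 1.58 to 6.08). Mir669h, the last member of the array, had 3.44 CPM (2.04 to 5.43) and 2.64 CPM (1.14 to 5.21). The intervals of Mir669l and Mir669e do not overlap between the libraries, and those of Mir669h do. Here too, the binomial test called 55.3% of all genes tested. The order Mir467d, Mir467e, then Mir669c and Mir669o held in both libraries, whereas Mir467c and Mir669l lay close in replicate 1 (45.4 and 40.7 CPM, with overlapping intervals) and apart in replicate 2 (64.4 and 18.2 CPM).

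**Figure D2:**
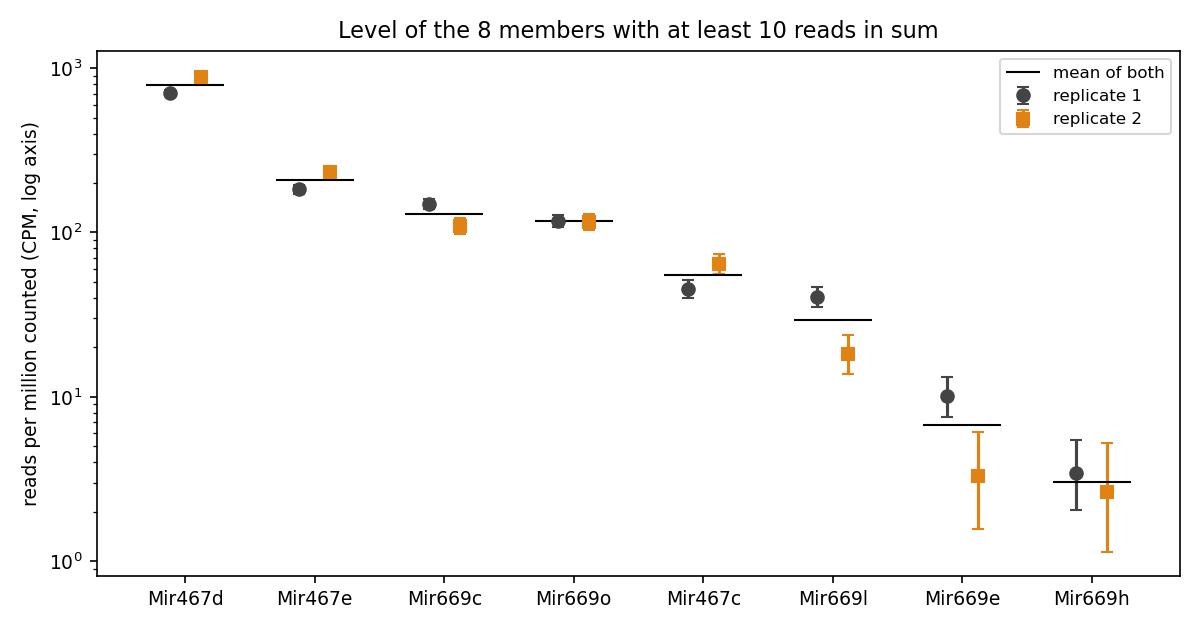
Level in CPM (log axis) of the 8 members with at least 10 reads in sum, by library; points are single libraries with exact 95% intervals, and lines are the mean of both. Mir467d leads at 708 and 879 CPM, and Mir669h is lowest at 3.44 and 2.64 CPM.

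The Mir466 and Mir297 families had 4 counted reads between them. Of 28 Mir466 genes, 26 had no read, Mir466q outside Sfmbt2 had 0 and 3 reads, and Mir466n inside it had 0 and 1. None of the 6 Mir297 genes had a read. For a gene whose reads can be counted, a floor of 3 reads stands for 0.573 CPM in the deeper library and 0.991 CPM in the other, and the exact interval of 0 reads reaches 0.704 and 1.22 CPM. These limits concern counted reads only. They do not bound the 9 Mir466 genes whose hairpins hold no 22-base window absent from all other hairpins, since reads that map to several places are not counted. Nor do they bound reads from a hairpin side with no such window. Some Mir297 genes and some other Mir466 genes have none on the 5′ side. Of the 10 members outside Sfmbt2, Mir466q was the only one with a read, so that all 6585 member reads of replicate 1 and 4318 of 4321 in replicate 2 came from inside Sfmbt2. No member had a read on the opposite strand.

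The array holds 48 further annotated microRNA genes in the same intron that carry Gm symbols, all on the plus strand. None was detected. Gm22678 had 0 and 1 reads, Gm22925 had 1 and 0, and the other 46 had none. Of these 48 hairpins, 47 share a stretch of 20 bases with another hairpin. This compares with 70 of 71 members inside Sfmbt2 and 49.4% of all 2202 hairpins. Of the 48, 22 hold no 22-base window absent from all other hairpins, so the counts do not bound their reads.

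How far a member could be counted at all depends on its sequence, because a read that fits several places is given to no gene. Each hairpin was therefore read in windows of 22 bases, a usual microRNA length, and a window was called its own where it occurs in no other annotated microRNA hairpin on either strand. Of the 81 members, 32 had no window of their own (39.5%), beside 13.5% of all 2202 genes. These 32 are 10 Mir467, 13 Mir669 and 9 Mir466 genes, and 26 of them are identical over the whole hairpin to at least 1 other gene. All 10 Mir467a copies and 11 of 12 Mir669a copies have no own window. None of the 32 had a read. The tandem repeat holds 29 of them, the part upstream of it 1 and the part downstream of it 2.

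**Figure D3:**
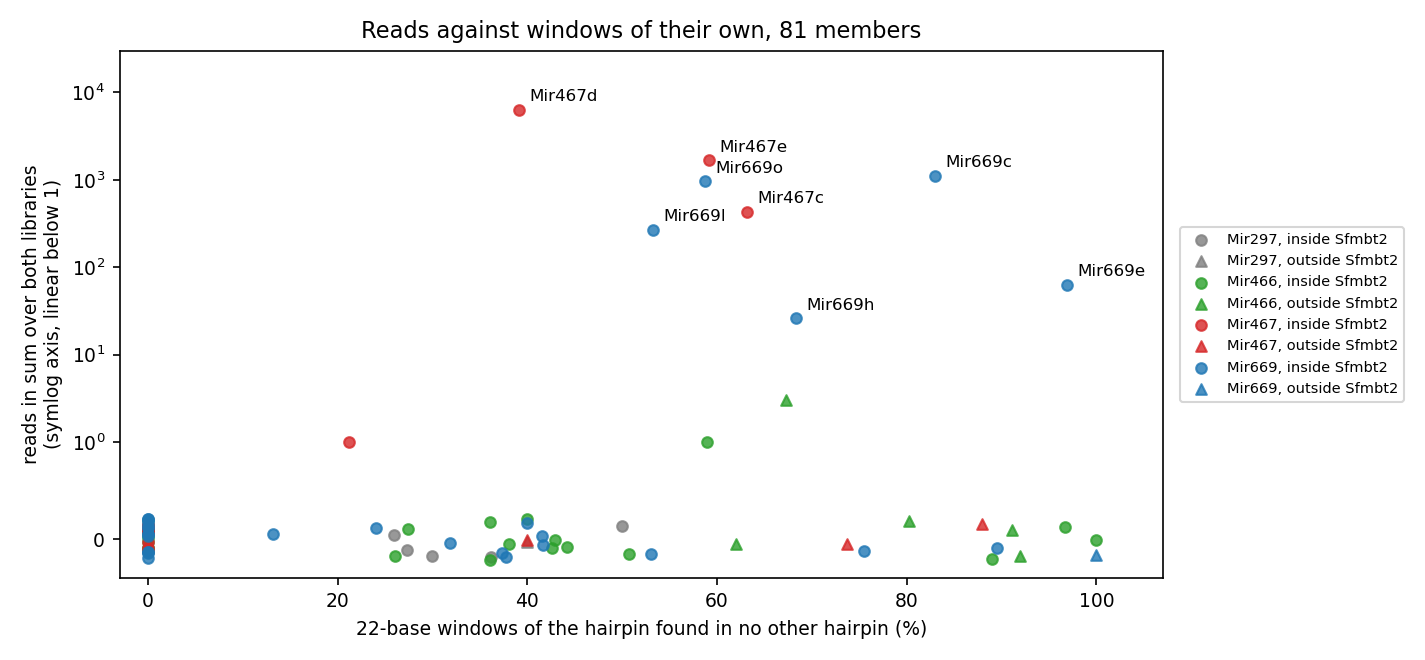
Reads in sum over both libraries (logarithmic above 1, linear below) against the share of 22-base hairpin windows found in no other microRNA hairpin, for the 81 members; circles are inside Sfmbt2 and triangles outside, coloured by family, and members with 0 reads are spread slightly around 0 so that they can be seen apart. The 32 members at 0% have no read, and the 8 labelled members lie between 39.1% (Mir467d) and 96.9% (Mir669e).

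The members with reads all had windows of their own, although a window of its own did not go with reads in every case. Mir467d had 25 own windows of 64, of which 19 of 22 on the 5′ side of the hairpin and 6 of 22 on the 3′ side. Its longest shared stretch was 60 bases, common to 9 Mir467a copies and Gm25022. Mir467e had 39 of 66 own windows and Mir467c 48 of 76, and these 2 share a stretch of 48 bases with each other. By edit distance over the whole hairpin, Mir467d and Mir467e were 92.0% identical. Mir669o was 92.8% identical to Mir669a-1, which had no read, with 44 of 75 own windows against 0 of 76. Mir669c had 73 of 88 own windows, Mir669l 41 of 77, Mir669h 71 of 104 and Mir669e 95 of 98.

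Inside Sfmbt2, each of the 4 Mir467 genes with an own window had a read (Mir467b with 1 read in replicate 1), and 5 of 16 such Mir669 genes, 1 of 14 Mir466 genes and 0 of 5 Mir297 genes did. The array thus holds 29 members with at least 1 own window and no read, and in 15 of them the share of own windows was at least that of Mir467d. All 8 members with 10 or more reads in sum had own windows on both sides of the hairpin, against 18 of these 29. Mir466g (59 of 59 own windows), Mir466h (58 of 60), Mir669b (68 of 76) and Mir466l (89 of 100) had 0 reads; these 4 were singled out after their values were seen. The windows were compared between annotated microRNA hairpins of GENCODE M21 only. Copies elsewhere in the genome were not searched for, so an own window does not show that a read would map to 1 place. The CAST/EiJ sequence of these hybrids was not compared, so whether the windows hold for it is not known. Of the 10 members outside Sfmbt2 all had own windows, at 40.0% to 100% of the hairpin. As these are counts from whole tissue, fewer expressing cells and less RNA per cell cannot be told apart.

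An imprinted microRNA cluster of another chromosome gives a scale for these counts. In the cluster from Mir379 to Mir410 on chromosome 12, 32 of 38 genes were detected, with 38282 and 21146 reads, against 7 of 71 members inside Sfmbt2, with 6585 and 4318 reads. No hairpin of that cluster lacked an own window, and 5 of 38 share 20 bases with another hairpin. The part of shared sequence in this difference was not tested.

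Between the 2 libraries the 3 Mir467 genes were lower in replicate 1 beyond counting error, and 3 of the 5 Mir669 genes were higher. Each gene was given a two-sided exact binomial p, with library sizes scaled by TMM and Benjamini-Hochberg adjustment over all 430 genes with at least 10 reads in sum. This test sets these libraries against each other by counting error and compares no conditions. It called 55.3% of all genes, 27.9% higher and 27.4% lower in replicate 1, so a call as such is common here. Of the 8 members tested, 6 were called. Mir467d (log2 difference, replicate 1 minus replicate 2, -0.45, interval -0.52 to -0.37, adjusted p = 1.24e-32), Mir467e (-0.48, -0.62 to -0.34, adjusted p = 1.10e-10) and Mir467c (-0.64, -0.92 to -0.36, adjusted p = 2.09e-05) were lower in replicate 1. Mir669c (0.31, 0.12 to 0.50, adjusted p = 0.00263), Mir669l (1.02, 0.59 to 1.48, adjusted p = 2.25e-06) and Mir669e (1.42, 0.49 to 2.62, adjusted p = 0.00373) were higher.

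Mir669o (-0.12, -0.31 to 0.07, adjusted p = 0.320) and Mir669h (0.20, -1.03 to 1.65, adjusted p = 0.930) were not called, and the value of Mir669o was 0.01 with total counts in place of TMM. TMM moved all differences by -0.13 relative to total counts, and the 6 called genes had the same direction with both. The median difference over the 8 members was 0.04, beside -0.05 over all genes tested, and the median size of a difference over all genes was 0.53. Mir467d, Mir467e, Mir669c, Mir669o and Mir669h differed by less than this median size, and Mir467c, Mir669l and Mir669e by more. That size fell to 0.40 once genes averaging fewer than 100 reads were left out. Of the members kept by this limit, Mir467d, Mir467e, Mir467c and Mir669l differed by more than 0.40, and Mir669c and Mir669o by less. The place of Mir467d and Mir467e thus depends on the genes they are set beside.

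The calls rest on counting error alone. When edgeR's exact test was given a biological coefficient of variation of 0.1, which called 28.6% of all genes, 3 members remained in number: Mir669l (adjusted p = 0.00399), Mir669e (adjusted p = 0.0167) and Mir467c (adjusted p = 0.0409). At the coefficient of 0.424 estimated by treating these libraries as replicates, edgeR's exact test called 0 of the 8 members, none of them at an unadjusted p under 0.05 either, and 0.930% of all genes. That coefficient was estimated from the same differences that the test then examined, with 1 library on each side, so these counts say nothing of whether a member differs beyond biological spread.

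**Figure D4:**
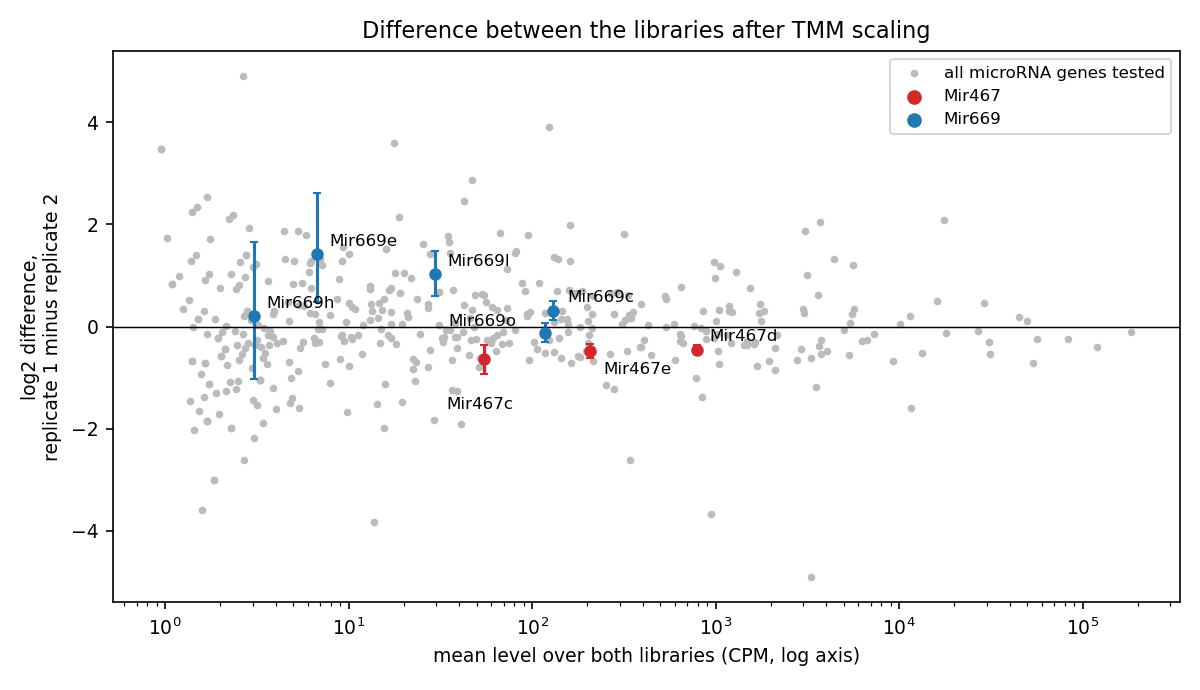
Log2 difference between libraries (replicate 1 minus replicate 2, after TMM scaling) against mean level in CPM (log axis); grey points are the 430 genes tested, and coloured points with exact 95% counting intervals are the 8 members. The 3 Mir467 genes lie between -0.64 and -0.45, and the 5 Mir669 genes between -0.12 and 1.42, among the points of all genes.

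Within the Mir467 family the make-up of the reads was close between the libraries. Mir467d gave 75.6% of the Mir467 reads in replicate 1 (interval 74.3 to 76.8) and 74.7% in replicate 2 (73.2 to 76.1), Mir467e gave 19.6% (18.5 to 20.7) and 19.8% (18.5 to 21.2), and Mir467c gave 4.85% (4.27 to 5.49) and 5.48% (4.75 to 6.28). All 3 intervals overlap between the libraries. Mir467d thus had 3.86 reads per read of Mir467e in replicate 1 (3.60 to 4.15) and 3.77 in replicate 2 (3.47 to 4.10). Mir467c lies 7.3 kb from the first member of the array, on the other side of the tandem repeat from Mir467d and Mir467e.

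Within the Mir669 family the intervals of the shares of Mir669o and Mir669l do not overlap between the libraries. Mir669o gave 36.6% of the Mir669 reads in replicate 1 (34.3 to 38.9) and 46.4% in replicate 2 (42.8 to 50.1), while Mir669l gave 12.7% (11.1 to 14.4) and 7.26% (5.51 to 9.34). The intervals of Mir669c, at 46.5% (44.1 to 48.9) and 43.9% (40.4 to 47.5), overlap between the libraries. Those of Mir669e, at 3.15% (2.37 to 4.10) and 1.32% (0.634 to 2.41), overlap only at their ends. Overlap of intervals is no test of equal shares. Mir467d had 17.4 reads per read of Mir669l in replicate 1 (15.2 to 20.1) and 48.3 in replicate 2 (37.0 to 64.4). Over all members, the Mir467 genes gave 74.5% of the reads in replicate 1 (73.4 to 75.5) and 82.4% in replicate 2 (81.2 to 83.5), and the Mir669 genes 25.5% (24.5 to 26.6) and 17.5% (16.4 to 18.7). These intervals do not overlap, but they cover counting error only, and with 1 library per tissue sample the animal and the library preparation cannot be told apart. All 3 erythroid markers were detected, at 995 CPM in sum in replicate 1 and 7382 CPM in replicate 2. The 8 cardiomyocyte markers stood at 5194 and 3456 CPM in sum, mostly from Mir499, Mir208a and Mir208b. The endothelial marker stood at 42911 and 63991 CPM, and the 2 smooth muscle markers at 30333 and 33879 CPM in sum. Epithelial markers summed to 549 and 337 CPM, and pluripotent cell markers to 6.11 and 11.6 CPM. The part of depth and of these markers in the family shares was not tested.

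**Figure D5:**
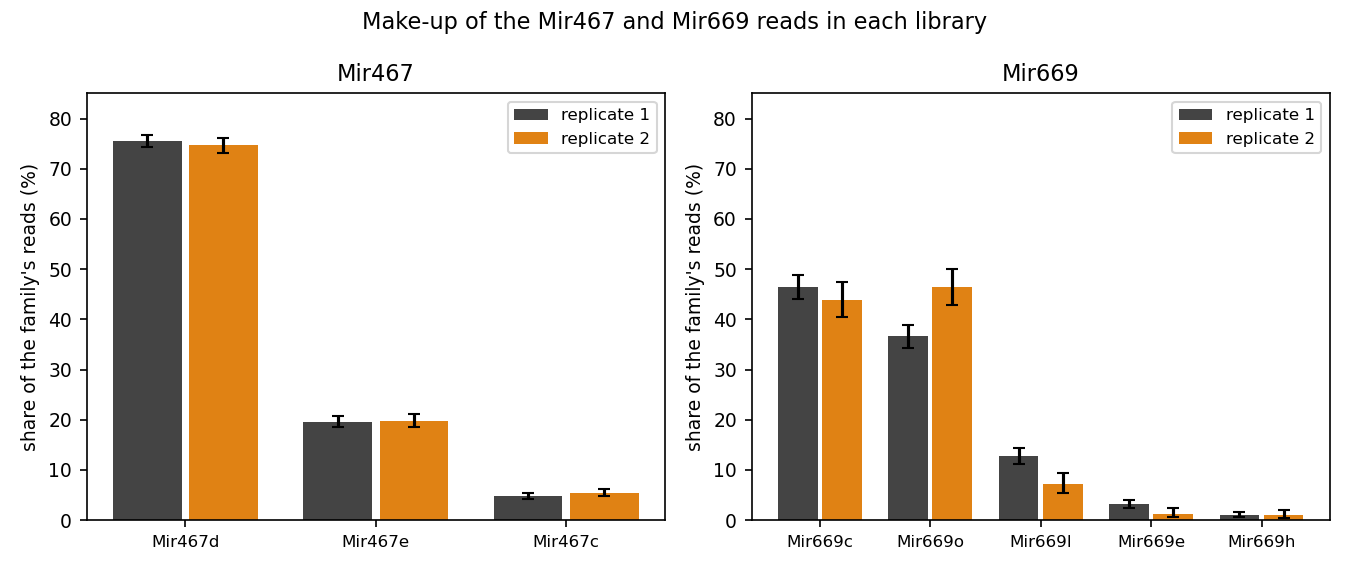
Share of the reads of the Mir467 family (left) and of the Mir669 family (right) that each of its counted genes gave in replicate 1 and replicate 2, in percent, with exact 95% intervals. The Mir467 shares overlap between the libraries, whereas Mir669o stood at 36.6% in replicate 1 and 46.4% in replicate 2, and Mir669l at 12.7% and 7.26%.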

How the data were processed

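MicroRNA libraries of 2 biological replicates were used. The deposited tables hold whole-number read counts per gene, made against mm10 with GENCODE M21 per the deposited readme; for trimming, alignment and counting, no tool or setting is given in the sources used here. Of 3 columns of counts the values show the first to be unstranded, the second own-strand and the third opposite-strand; the second was used. The 4 summary lines stayed out of library sizes (unmapped 13.4% and 13.3%, mapped to several places 41.1% and 39.9%, outside genes 4.33% and 4.30%).

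Detection meant a minimum of 10 reads in each library. For 0 reads the floor was 3 reads. TMM factors (edgeR 4.0.16, R 4.3.3) came from genes with at least 10 reads in sum. Binomial p-values doubled the smaller tail, the threshold was an adjusted p of 0.05, and log2 differences had 0.5 reads added. edgeR's quasi-likelihood test could not be fitted, as 1 group leaves no residual degrees of freedom for a difference between its libraries. Hairpin sequences and positions came from GENCODE M21; genes that overlap were not compared with each other. Identity used edlib 1.3.9. The binomial test was tried on simulated counts that held counting error only. That trial says nothing of spread between animals or libraries. Alternatives were the unstranded column, other minimums, denominators, scalings and error models, each replicate alone, DESeq2 1.42.0 size factors and other lengths of shared stretch. Named were members with at least 10 reads in sum, and others by counts. The members and lists were chosen with earlier results of these data known. The labels call the libraries biological replicates of separate tissue samples, and p-values speak of these 2 libraries only. Figures were drawn with matplotlib 3.10.9, and the exact tests used scipy 1.17.1 under Python 3.11.15.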

Additional observations from a re-analysis of the deposited data

How the results depend on the processing

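The members' share of counted reads was 0.134% ± 0.0120 (SD, n = 2). It was 0.184% with the unstranded column, where the members' reads were equal and reads ambiguous between genes on opposite strands left the denominator, 0.0562% of all reads of the library, and 0.0549% without Mir467d, which was tried after seeing the data. Over members that share no stretch of 20 bases it was 0, as both such members had no read. With each library alone it ranged from 0.126% to 0.143%. The share of member reads from inside Sfmbt2 was 99.97%, and 99.91% without Mir467d. The binomial test between the libraries called 6 members, beside 55.3% of all genes tested. Of these, 3 remained in number with a difference of at least 1.5-fold, for which no share over all genes was taken. At a biological coefficient of variation of 0.1 there were 3, beside 28.6% of all genes. At the dispersion estimated from the same 2 libraries, which is no independent test, there were 0, beside 0.930%. Mir669o changed sign, to 0.01 with total counts and 0.01 with no filter on low counts, and was not called in either case. Detected members numbered 7, and 6 to 8 under the other minimums and with each library alone. Members that share a stretch of 20 bases numbered 79, beside 49.4% of all microRNA genes. They numbered 80 at 18 bases and 79 at 22 bases. The 32 members with no own window were 32 also at 18 and at 20 bases, lengths tried after seeing the data. The search for mature arms at 1 place of the genome was not run, as no genome sequence was used here. No paired analysis was possible because there is 1 group. Depth limits the low members, as Mir669h rests on 18 and 8 reads and Mir669e on 53 and 10.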

Other observations

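Over all 2202 microRNA genes, 13.5% had no 22-base window of their own, and 5 of these had any read. Gm23935, with 55 and 63 reads, was the only one of them detected, and the other 4 had 1 to 6 reads in sum. Of the 1905 genes with an own window, 334 were detected (17.5%), and of the 1170 whose windows were all their own, 274 were (23.4%). Among the members of the 4 families with an own window, 7 of 49 were detected (14.3%).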
